A study of Mus musculus with 8 samples.

Results

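The odorant receptor (OR) genes *Olfr763* to *Olfr825* form a cluster on mouse chromosome 10, and their mRNAs were measured here in olfactory mucosa of newborn mice whose olfactory sensory neurons (OSNs) had *Emx2* deleted. Members of the cluster were all rows of the array table whose only gene symbol lay in the numbered run from *Olfr763* to *Olfr825*. There were 45 such rows among 23410 rows with a gene symbol, and all 45 represented protein-coding ORs. The reference annotation (assembly GRCm38.p6) holds 63 genes with these numbers. Of these, 7 were represented only by rows that carry several symbols (*Olfr773*, *Olfr777*, *Olfr782*, *Olfr800*, *Olfr819*, *Olfr823* and *Olfr824*). Another 11, of which 9 are pseudogenes, were matched to no row.

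The knockout group held 4 samples with the genotype 123Cre:Emx2(fl/fl). The control group held 4 littermate samples in which at most 1 allele could recombine: controls 1 and 4 had the genotype 123Cre:Emx2(fl/+), and controls 2 and 3 had the genotype Emx2(fl/fl) without Cre. All mice were taken at postnatal day 1 from a mixed 129 x C57BL/6J background, and RNA of each sample was hybridized to its own Affymetrix Mouse Gene 1.0 ST array. The 123Cre transgene drives Cre recombinase from the immature stage of the OSN onward, and its recombination is incomplete across OSNs, so neurons that kept *Emx2* also contributed RNA to the knockout samples. The labels give no litter or sex for a sample, and no replicate number pairs samples. The p-values therefore measure only how far these samples spread, which may be partly technical.

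Each OSN expresses a single allele of a single OR gene, and the OR binds odorants at the cilia and sets where the axon ends in the olfactory bulb. The abundance of an OR mRNA in the mucosa therefore depends both on how many OSNs express that OR and on how much mRNA each of them holds. In a bulk sample, fewer cells of a type and less RNA per cell cannot be told apart. ORs fall into class I and class II by sequence, and the mouse OR (MOR) family names group ORs of similar sequence. By their MOR names 44 of the 45 members are class II ORs, and *Olfr765* has no such name among its synonyms. Emx2 and Lhx2 are homeodomain transcription factors of OSNs, and homeodomain sites are a known feature of the DNA upstream of many OR genes. The question was whether the ORs of this cluster depend on Emx2 once OSNs have formed.

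The deletion was visible in each knockout array. *Emx2* had log2 values of 9.80, 9.86, 10.01 and 9.93 in knockouts 1 to 4, against 10.80, 10.86, 10.997 and 10.72 in controls 1 to 4, and it fell by 48.0% (adjusted p = 0.0014, limma with Benjamini-Hochberg adjustment over all 23410 rows, n = 4 each). *Lhx2* differed by -0.004 ± 0.067 (SE) and *Omp*, the mature OSN marker, by -0.06 ± 0.071. Knockout 2 stood apart from the other arrays, with a mean correlation of 0.978 to them, against 0.987 to 0.990 for the other 7 arrays, and its array weight in limma was 0.17. Among 18 mature OSN markers 14 were below 0 and 0 passed an adjusted p of 0.05, with a median difference of -0.10 and a mean level of 11.39 to 11.54 in knockouts and 11.54 to 11.63 in controls. Of 14 immature OSN markers 13 were below 0 and 0 passed that threshold, with a median of -0.13 and a mean level of 11.18 to 11.29 in knockouts and 11.28 to 11.46 in controls. *Gap43*, which is among them, differed by -0.23 ± 0.068 (SE; adjusted p = 0.564, limma). At an unadjusted p under 0.05 (limma), 4 mature markers were lower and 1 higher. For immature markers, 5 were lower and 0 higher, and 3.06% of all rows were lower at this threshold. The part of these shifts in the differences of the cluster was not tested.

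No member of the cluster passed an adjusted p of 0.05 in the comparison of knockouts with controls, where 0.359% of all rows did (84 of 23410). At an unadjusted p under 0.01, the threshold the study used for ORs, 2 of the 45 members were lower and 0 were higher. That is 4.44% of the members lower, beside 1.3% of all rows and 3.94% of the 990 other OR rows. The share higher at this threshold was 0.436% of all rows. At an unadjusted p under 0.05, 6 members (13.3%) were lower and 0 higher, beside 3.06% of all rows and 13.5% of other OR rows that were lower. The counts of single members were thus close to those of other ORs.

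The direction of the differences was nevertheless shared by most of the cluster. Differences are given as knockout minus control on the log2 scale, and 40 of 45 members (88.9%) were below 0, against 756 of 990 other ORs (76.4%). The median over members was -0.30, against -0.18 over other ORs and 0.0041 over all rows. Differences ran between -1.18 for *Olfr801* and 0.14 for *Olfr768*, with quartiles of -0.49 and -0.17, and 14 members lay within 0.2 of 0. The SE of a single member ranged from 0.066 to 0.49 with a median of 0.23, and the 95% interval excluded 0 for 6 members.

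**Figure D1:**
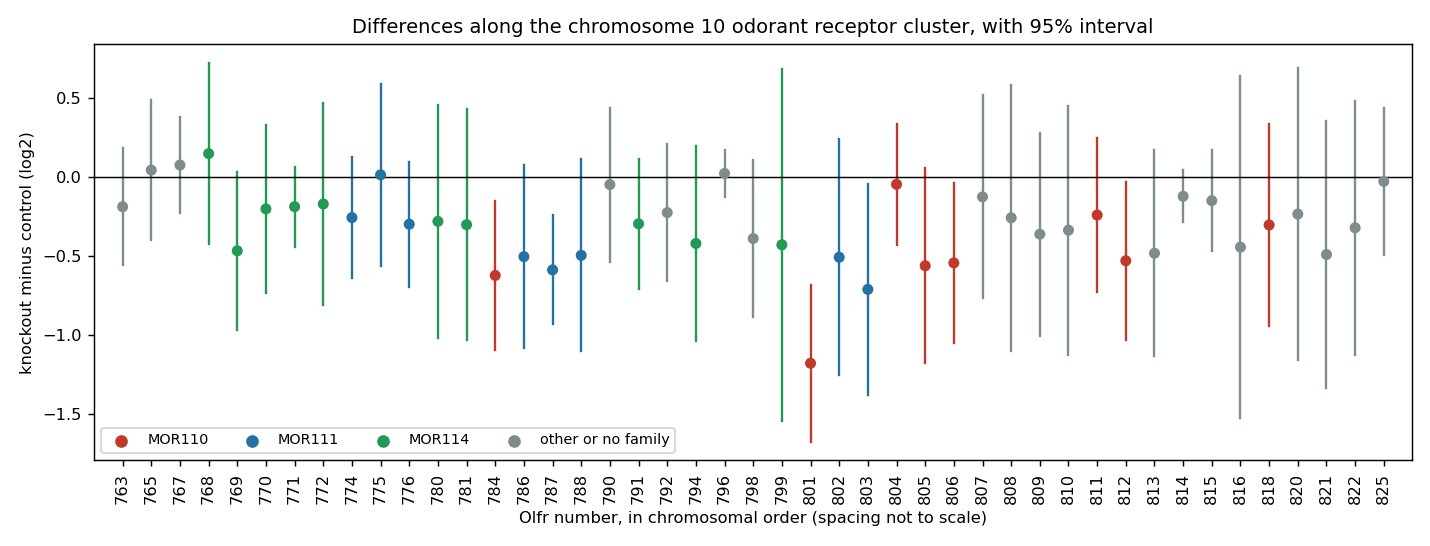
Knockout minus control difference (log2, y axis) of the 45 members in their order along chromosome 10 (x axis, Olfr numbers), with 95% intervals from limma (n = 4 each) and colours by MOR family. The intervals of 6 members lie wholly below 0, *Olfr801* lies at -1.18, and 40 of the 45 points are below 0.

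The largest difference was that of *Olfr801*, an OR of family MOR110. *Olfr801* had log2 values of 7.47, 6.86, 7.69 and 7.91 in the knockouts, against 8.65, 8.33, 8.77 and 8.91 in the controls. All 4 knockouts lay below all 4 controls, with 0.43 between the highest knockout and the lowest control. The mean was 7.48 ± 0.449 in knockouts and 8.66 ± 0.246 in controls (SD, n = 4 each), a difference of -1.18 ± 0.218 (SE; 95% interval -1.68 to -0.69) or -55.9% on the linear scale. It passed the unadjusted threshold of 0.01, with an adjusted p of 0.102 (limma). The adjusted p of *Olfr801* was 0.0104 with the title-number term described further on, 0.0105 with array weights and 0.0354 without knockout 2, and the difference was -0.97 without that array. It was below 0 in 20 of 20 settings, with values of -1.32 to -0.97, and adjusted p ranged from 0.0104 to 0.904, the highest with only the 2 Emx2(fl/fl) controls.

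Family MOR110, to which *Olfr801* belongs, has 8 members with rows in the cluster (*Olfr784*, *Olfr801*, *Olfr804*, *Olfr805*, *Olfr806*, *Olfr811*, *Olfr812* and *Olfr818*). All 8 differences were below 0, with a median of -0.54, and 4 passed an unadjusted p of 0.05. *Olfr784* had 7.34, 6.86, 7.43 and 7.93 in the knockouts, against 7.98, 7.73, 8.21 and 8.14 in the controls, a difference of -0.63 ± 0.208 (SE; 95% interval -1.10 to -0.15, adjusted p = 0.682, limma). The lowest 3 knockouts lay below every control, and knockout 4 lay between controls 2 and 1. *Olfr812* had 7.98, 7.65, 8.55 and 8.49 in the knockouts, against 8.77, 8.29, 8.97 and 8.77 in the controls, a difference of -0.53 ± 0.22 (95% interval -1.03 to -0.03, adjusted p = 0.789, limma). Knockouts 1 and 2 lay below every control, while knockouts 3 and 4 lay between controls 2 and 1. *Olfr806* had 5.28, 5.04, 5.15 and 5.94 in the knockouts, against 5.76, 5.52, 6.03 and 6.29 in the controls, a difference of -0.55 ± 0.223 (95% interval -1.05 to -0.04, adjusted p = 0.788, limma). Knockout 4 lay above controls 1 and 2, and the other 3 knockouts lay below every control.

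*Olfr805* had 7.80, 7.10, 8.11 and 8.27 in the knockouts, against 8.28, 7.88, 8.71 and 8.66 in the controls, a difference of -0.56 ± 0.272 (95% interval -1.18 to 0.05, adjusted p = 0.843, limma). Within each group its arrays had the same order as for *Olfr784*, with knockout 2 lowest in both, but its groups overlapped more. The remaining members of the family differed less: *Olfr804* by -0.05, *Olfr811* by -0.24 and *Olfr818* by -0.31. The 3 members named last did not pass an unadjusted p of 0.05.

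Family MOR111 also has 8 members in the cluster (*Olfr774*, *Olfr775*, *Olfr776*, *Olfr786*, *Olfr787*, *Olfr788*, *Olfr802* and *Olfr803*). Of these 7 were below 0, with a median of -0.50, and 2 passed an unadjusted p of 0.05. *Olfr787* had 5.08, 4.79, 5.04 and 5.05 in the knockouts, against 5.38, 5.24, 5.85 and 5.85 in the controls, a difference of -0.59 ± 0.152 (SE; 95% interval -0.94 to -0.24, adjusted p = 0.375, limma). *Olfr787* and *Olfr801* were the only members for which all 4 knockouts lay below all 4 controls. Such separation held for 2 of 45 members (4.44%), beside 2.54% of all rows and 5.35% of other ORs. The values of *Olfr787* were below the lowest lower quartile of the arrays, 6.45, and a row that carries *Olfr787* together with *Olfr774*, *Olfr775* and *Olfr776* differed by only -0.21 ± 0.243 (SE; adjusted p = 0.9999, limma).

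*Olfr803* had 5.22, 4.58, 5.33 and 5.52 in the knockouts, against 5.56, 5.32, 6.00 and 6.63 in the controls, a difference of -0.71 ± 0.294 (95% interval -1.38 to -0.05, adjusted p = 0.789, limma). Control 4 was the highest array and knockout 2 the lowest, and knockouts 3 and 4 lay between controls 2 and 1. *Olfr786* had 7.74, 6.94, 7.94 and 8.18 in the knockouts, against 8.06, 7.92, 8.34 and 8.51 in the controls, a difference of -0.51 (95% interval -1.08 to 0.07, adjusted p = 0.857, limma). *Olfr788* had 7.57, 6.76, 7.74 and 7.75 in the knockouts, against 7.78, 7.44, 8.31 and 8.29 in the controls, a difference of -0.50 (95% interval -1.11 to 0.11, adjusted p = 0.887, limma). *Olfr786* and *Olfr788* are the neighbours of *Olfr787* on the chromosome, and in both every knockout lay below the mean of the controls. *Olfr802* had 6.71, 5.96, 6.99 and 7.18 in the knockouts, against 7.34, 6.49, 7.15 and 7.89 in the controls, a difference of -0.51 (95% interval -1.26 to 0.24, adjusted p = 0.938, limma). The other 3 members lay at -0.30 for *Olfr776*, -0.26 for *Olfr774* and 0.01 for *Olfr775*.

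**Figure D2:**
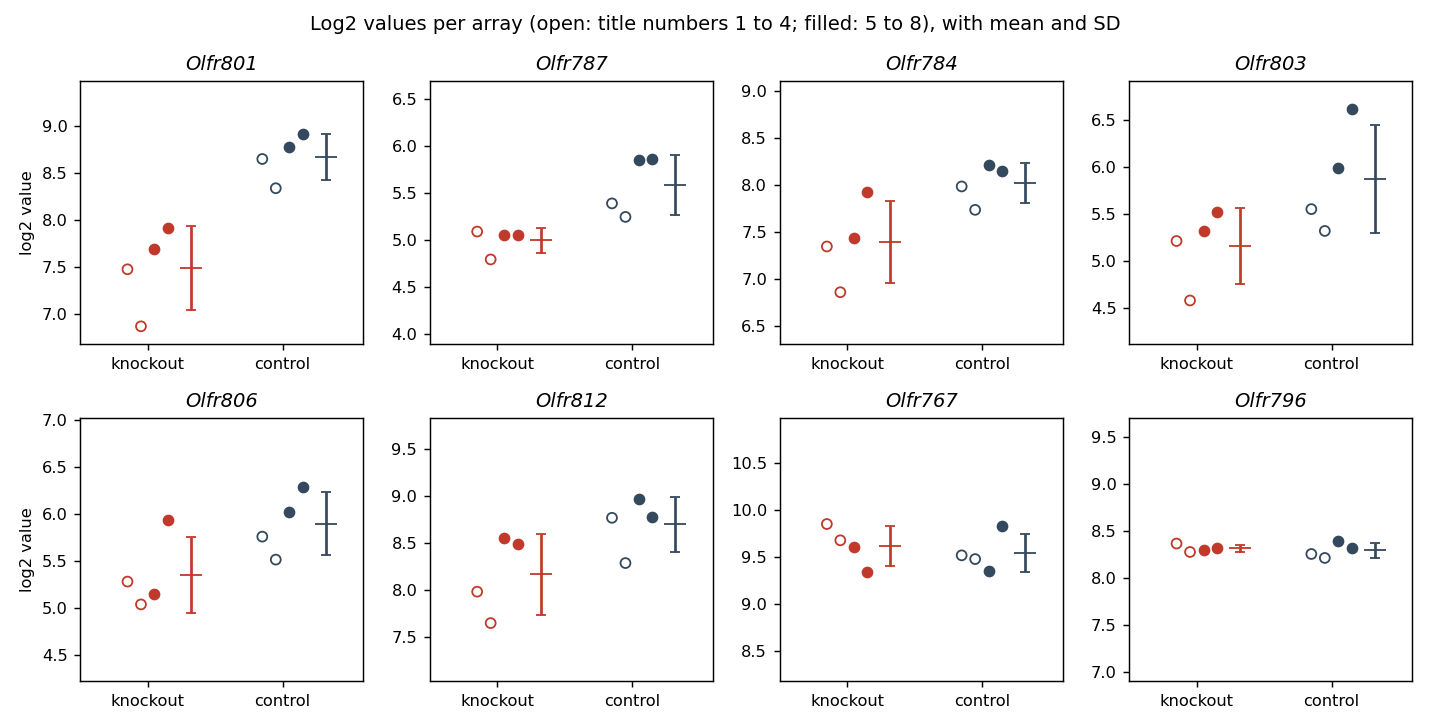
Log2 values (y axis) of the 6 members with an unadjusted p under 0.05 and of *Olfr767* and *Olfr796*, for each of 4 knockout and 4 control arrays, with mean and SD. Only *Olfr801* and *Olfr787* show no overlap between groups, and *Olfr796* keeps all 8 arrays between 8.21 and 8.39.

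All 6 members with an unadjusted p under 0.05 thus belong to family MOR110 or MOR111, which together hold 16 of the 45 members. The remaining families had no member past this threshold in the main comparison, but some did in the fit with title numbers described further on. Among the 6, *Olfr787*, *Olfr803* and *Olfr806* were dim. Their means over all arrays were 5.29, 5.52 and 5.63, below the lowest lower quartile of the arrays, 6.45. The 10 members of MOR114, the most numerous family in the cluster, had a median of -0.29 with 9 below 0. The 5 members of MOR113 had a median of -0.32 and the 4 members of MOR108 a median of -0.38, with all 9 below 0. *Olfr790* and *Olfr808* of MOR112 had a median of -0.16, and *Olfr763* and *Olfr796* of MOR269 a median of -0.09. Families represented by a single member lay at -0.49 for *Olfr821* (MOR109), -0.24 for *Olfr820* (MOR116), -0.13 for *Olfr807* (MOR117), -0.03 for *Olfr825* (MOR210) and 0.07 for *Olfr767* (MOR115). No difference between families was tested, because the families were read after the values of single members were known.

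Within MOR114, *Olfr769* had the lowest p. *Olfr769* had 9.005, 8.79, 9.53 and 9.78 in the knockouts, against 9.44, 9.72, 10.04 and 9.79 in the controls, a difference of -0.47 ± 0.22 (95% interval -0.97 to 0.03, adjusted p = 0.836, limma). Knockouts 1 and 2 were below every control, and knockouts 3 and 4 overlapped them. *Olfr799* had 7.83, 6.85, 8.57 and 8.45 in the knockouts, against 8.50, 7.17, 8.47 and 9.30 in the controls, a difference of -0.43 ± 0.491, the widest error of the cluster (95% interval -1.54 to 0.68, adjusted p = 0.9999, limma). Its controls alone spanned 7.17 to 9.30, wider than the difference between groups. *Olfr780* had 8.19, 7.79, 8.73 and 9.33 in the knockouts, against 8.76, 8.26, 8.95 and 9.19 in the controls, a difference of -0.28 ± 0.325. Knockout 4 was its highest array. Among MOR113 genes, *Olfr810* had 8.67, 8.17, 9.53 and 9.45 in the knockouts, against 9.42, 8.53, 9.66 and 9.56 in the controls, a difference of -0.34 ± 0.347. Its lowest arrays were knockout 2 and control 2. *Olfr814* had 4.22, 4.18, 4.07 and 4.10 in the knockouts, against 4.29, 4.26, 4.15 and 4.37 in the controls, a difference of -0.13 ± 0.073. *Olfr815* had 4.32, 4.08, 4.45 and 4.15 in the knockouts, against 4.38, 4.04, 4.65 and 4.55 in the controls, a difference of -0.15 ± 0.142. *Olfr814* and *Olfr815* kept all arrays between 4.04 and 4.65, below the lowest lower quartile of the arrays. Another 8 members had means below that quartile, besides *Olfr787*, which makes 11 dim members in all. The MOR108 gene *Olfr798* was among them. *Olfr798* had 4.11, 3.96, 4.40 and 5.01 in the knockouts, against 4.90, 4.46, 4.97 and 4.72 in the controls, a difference of -0.39 ± 0.219. The single MOR116 gene varied mostly with the arrays. *Olfr820* had 9.57, 8.19, 9.89 and 9.76 in the knockouts, against 9.32, 8.92, 9.94 and 10.18 in the controls, a difference of -0.24 ± 0.406, and it was 0.15 without knockout 2.

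There were 5 members above 0, none of them past an unadjusted p of 0.05. *Olfr768* had 6.95, 6.63, 7.61 and 7.56 in the knockouts, against 7.005, 6.70, 6.92 and 7.55 in the controls, a difference of 0.14 ± 0.253 (95% interval -0.43 to 0.72, adjusted p = 0.9999, limma). *Olfr767* had 9.85, 9.68, 9.61 and 9.34 in the knockouts, against 9.52, 9.48, 9.36 and 9.83 in the controls, a difference of 0.07 ± 0.134. *Olfr796* had 8.36, 8.27, 8.29 and 8.32 in the knockouts, against 8.25, 8.21, 8.39 and 8.32 in the controls, a difference of 0.02 ± 0.066, the smallest SE of the cluster (95% interval -0.13 to 0.17). *Olfr796* thus had the narrowest bounds of any member. *Olfr765* had 7.79, 7.79, 8.48 and 8.39 in the knockouts, against 7.88, 7.88, 8.12 and 8.41 in the controls, a difference of 0.04 ± 0.195. *Olfr775* had 7.41, 6.68, 7.40 and 7.86 in the knockouts, against 7.44, 6.83, 7.65 and 7.39 in the controls, a difference of 0.01 ± 0.254. The groups overlapped in all 5, and the sign of each turned in at least 1 other setting. *Olfr765*, *Olfr767* and *Olfr796* were also among the 7 members whose lowest array was not knockout 2, with *Olfr763*, *Olfr804*, *Olfr814* and *Olfr815*. The other 22 members ranged from -0.49 to -0.03, with unadjusted p of 0.119 or more.

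Arrays differed in the level of the whole cluster, apart from the genotype. Averaged over the 45 members, the log2 level was 7.001, 6.55, 7.34 and 7.46 in knockouts 1 to 4, against 7.37, 6.95, 7.59 and 7.70 in controls 1 to 4. The mean over arrays was 7.09 ± 0.405 in knockouts and 7.40 ± 0.333 in controls (SD, n = 4 each), so the difference of -0.31 was smaller than the spread within either group. Knockout 2 was the lowest of all 8 arrays in 38 of 45 members, and control 2 the lowest control in 42. Without knockout 2 there were 33 members below 0, and the mean difference over members was -0.14 and the median -0.11, against -0.06 for the median of other ORs. Leaving out each array in turn gave means of -0.47 to -0.14. The mean was -0.21 after arrays were centred on mature OSN markers, -0.33 after quantile normalization and -0.30 after centring on rows that are not ORs. Centring on mature OSN markers moved the median of all rows by 0.11.

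**Figure D3:**
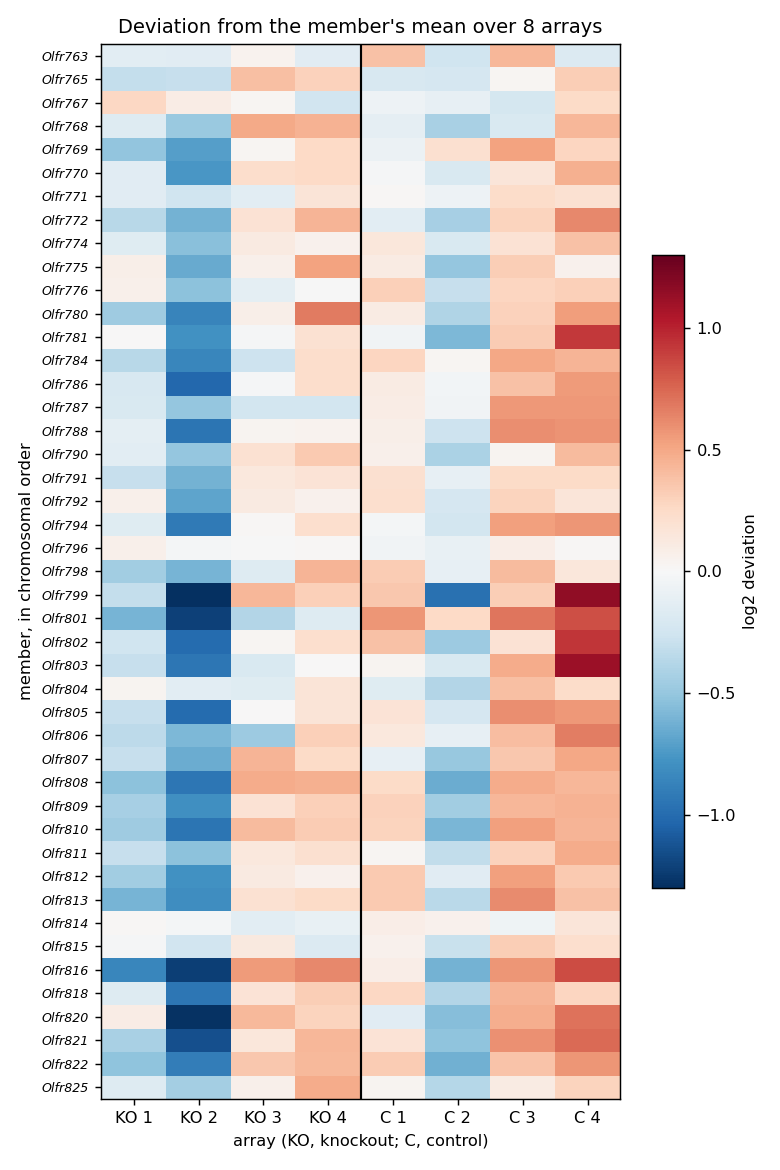
Deviation of each member (y axis, in chromosomal order) from its own mean over 8 arrays (colour, log2), for knockouts 1 to 4 (KO) and controls 1 to 4 (C) on the x axis. Knockout 2 is the lowest array in 38 of 45 members, and *Olfr767*, *Olfr796* and *Olfr814* are among the 7 exceptions.

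The sample titles carry numbers, and these numbers moved with the level of the cluster. Knockouts 1 and 2 and controls 1 and 2 have title numbers 1 to 4, and knockouts 3 and 4 and controls 3 and 4 have title numbers 5 to 8. The labels do not say what the numbers stand for. The members were higher at numbers 5 to 8 than at numbers 1 to 4 in 42 of 45 cases among knockouts and 44 of 45 among controls, with median differences of 0.65 in knockouts and 0.43 in controls. In a fit with both genotype and title numbers, the later numbers were higher by a median of 0.56 over members and 0.35 over other ORs. This shift passed an adjusted p of 0.05 (limma) for 0 members, 0 of the 990 other ORs and 0 of all 23410 rows. The later numbers were higher at an unadjusted p of 0.05 for 38 of 45 members, beside 15.5% of all rows and 56.8% of other ORs.

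Most members were below 0 on both sides of this division. At title numbers 1 to 4 the median over members was -0.41, with 42 of 45 below 0, and at numbers 5 to 8 it was -0.20, with 39 below 0. There were 36 members below 0 on both sides, beside 576 of 990 other ORs and 5945 of all 23410 rows. Other ORs had medians of -0.28 at numbers 1 to 4 and -0.07 at numbers 5 to 8, with 815 and 628 below 0. All members were read from the same arrays, so they are not replicates of the genotype. Each side holds 2 knockouts and 2 controls, and no test was run within a side. *Olfr801* differed by -1.32 at numbers 1 to 4 and by -1.04 at numbers 5 to 8, *Olfr803* by -0.54 and -0.89, and *Olfr787* by -0.38 and -0.80 in the same order. *Olfr784* differed by -0.76 at the lower numbers and by -0.49 at the higher numbers.

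With the title numbers as a term, the median SE of a member was 0.16 rather than 0.23, and *Olfr801* passed an adjusted p of 0.05 (adjusted p = 0.0104, limma). This fit called 1 of 45 members, 17 of 990 other ORs and 0.47% of all rows at that threshold, in either direction. At an unadjusted p under 0.01 it gave 8 lower members, *Olfr801*, *Olfr787*, *Olfr784*, *Olfr803*, *Olfr812*, *Olfr769*, *Olfr805* and *Olfr806*, and 0 higher members. The background in this fit was 1.91% of all rows and 11.2% of other ORs lower at that threshold. Of the 8 lower members, 7 belong to MOR110 or MOR111, and *Olfr769* belongs to MOR114. At an unadjusted p under 0.05 (limma), this fit gave 19 lower members. They were 6 of MOR110, 5 of MOR111, 4 of MOR114, 2 of MOR108, 1 of MOR113 and *Olfr821* of MOR109. The shares of all rows and of other ORs at that threshold were not computed for this fit. *Olfr787* had an adjusted p of 0.0787 in this fit, and *Olfr784* of 0.196.

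**Figure D4:**
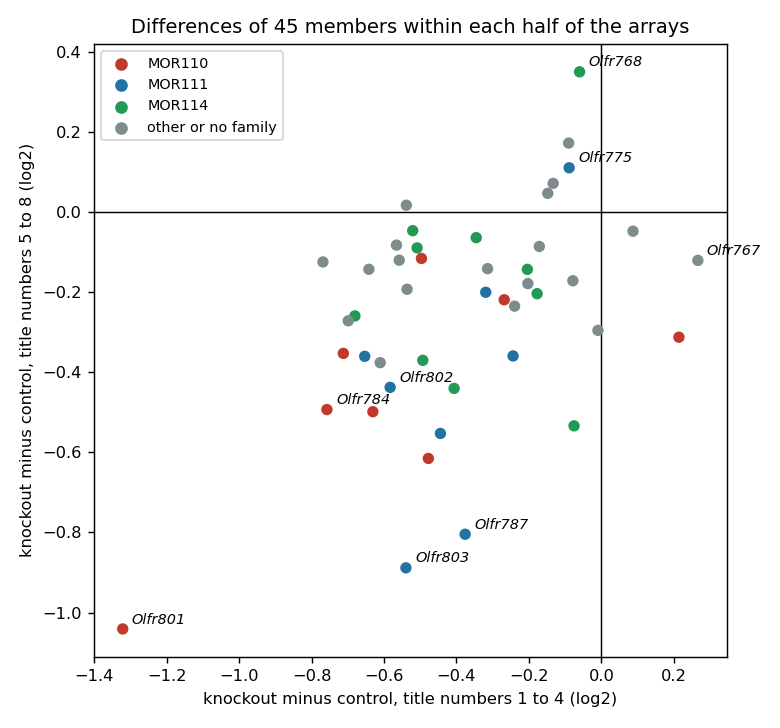
Knockout minus control difference (log2) of the 45 members among arrays with title numbers 1 to 4 (x axis) and among those with numbers 5 to 8 (y axis), 2 knockouts and 2 controls each, coloured by MOR family. There are 36 points below 0 on both axes, and *Olfr801* lies at -1.32 and -1.04.

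The 2 control genotypes were also compared. They differ both in Cre and in the number of floxed alleles, so the parts of these cannot be told apart. No member differed between 123Cre:Emx2(fl/+) and Emx2(fl/fl) controls at an unadjusted p of 0.05, where 2.04% of all rows did, with 2 samples each, and the median over members was 0.24. Knockouts differed from 123Cre:Emx2(fl/+) controls by a median of -0.44 and from Emx2(fl/fl) controls by a median of -0.14. Those comparisons share the knockout samples. Control 2, an Emx2(fl/fl) sample, was the lowest control in 42 of 45 members. The mean over members was 6.95 in control 2 and 7.59 in control 3, against 7.37 in control 1 and 7.70 in control 4. The part of control 2 in the gap between control genotypes was not tested. *Olfr801* averaged 8.78 in 123Cre:Emx2(fl/+) controls and 8.55 in Emx2(fl/fl) controls, so its difference was -1.29 against the first genotype and -1.07 against the second. *Olfr802* averaged 7.62 in 123Cre:Emx2(fl/+) controls and 6.82 in Emx2(fl/fl) controls, and *Olfr799* averaged 8.90 and 7.82 in the same order. For *Olfr802* and *Olfr799* the control genotypes lay farther apart than knockouts and controls did. *Olfr802* differed by -0.91 from the first genotype and by -0.11 from the second, and *Olfr799* by -0.97 and 0.11 in the same order.

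Position along the chromosome was described through the order of the members, since the array annotation names no genome build. Adjacent measured members differed from each other by a median of 0.18, and 5 of 44 adjacent pairs differed by more than 0.5. The SD over the differences of all 45 members was 0.24, and pairs in random order were not examined. The correlation of differences between adjacent members was 0.22 over the 44 pairs, a description of points that share the same 8 arrays. There were 9 members below -0.5. *Olfr784*, *Olfr786* and *Olfr787* are consecutive measured members at -0.63, -0.51 and -0.59, with *Olfr788* next at -0.50. A second run covers *Olfr801*, *Olfr802* and *Olfr803* at -1.18, -0.51 and -0.71, then *Olfr804* at -0.05, and *Olfr805* and *Olfr806* at -0.56 and -0.55. *Olfr812*, at -0.53, lies apart from both runs. Members on the plus strand had a median of -0.30 (18 members) and those on the minus strand a median of -0.22 (20 members). The median was -0.36 over the other 7 members (*Olfr768*, *Olfr786*, *Olfr794*, *Olfr801*, *Olfr808*, *Olfr809* and *Olfr810*), for which no strand was read.

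Rows with several symbols were read apart, since their probes cannot separate the genes named. Some of these genes, such as *Olfr774* and *Olfr804*, also have a row of their own. There were 11 such rows with at least 1 member, and none passed an unadjusted p of 0.05 (limma) in the main comparison. With the title numbers as a term, the rows for *Olfr800* and *Olfr777* and those for *Olfr819* and *Olfr247* passed it. The lowest adjusted p in that fit was 0.0787 (limma), in a row for *Olfr800* and *Olfr777*. Of the rows for *Olfr800* and *Olfr777*, the first had 7.83, 7.35, 8.33 and 8.39 in the knockouts, against 8.15, 8.14, 8.65 and 8.87 in the controls, a difference of -0.48 ± 0.257 (SE; adjusted p = 0.886, limma). The rows for *Olfr819* and *Olfr247* lay at -0.43 to -0.37, those for *Olfr824* and *Olfr823* at -0.38 and -0.35, and those for *Olfr804* and *Olfr782* at -0.33. The row for *Olfr772* and *Olfr773* lay at -0.06. All 11 were below 0, but they hold 9 distinct sets of values, as both rows for *Olfr804* and *Olfr782* were identical and so were a pair of the rows for *Olfr819* and *Olfr247*.

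Sequence upstream of the members is shown for *Olfr784* and *Olfr806* of MOR110 and for *Olfr787* and *Olfr803* of MOR111, 4 of the 6 members with an unadjusted p under 0.05, so that the families can be set side by side. The windows are from RefSeq (GRCm38.p6) and hold 250 bases before and 50 bases after the start that the table gives for a gene, at chr10:129387385-129387684 (plus strand) for *Olfr784*, chr10:129738866-129739165 (minus strand) for *Olfr806*, chr10:129462428-129462727 (plus strand) for *Olfr787* and chr10:129691990-129692289 (minus strand) for *Olfr803*. The 7 members without a strand, *Olfr801* among them, have no window here. Of the 38 members that had a window, 37 have a start codon at that start, so these windows lie mostly before the coding sequence and need not lie at the start of transcription. Capitals mark matches to TAATNA on either strand, the core of many homeodomain sites.
Olfr784: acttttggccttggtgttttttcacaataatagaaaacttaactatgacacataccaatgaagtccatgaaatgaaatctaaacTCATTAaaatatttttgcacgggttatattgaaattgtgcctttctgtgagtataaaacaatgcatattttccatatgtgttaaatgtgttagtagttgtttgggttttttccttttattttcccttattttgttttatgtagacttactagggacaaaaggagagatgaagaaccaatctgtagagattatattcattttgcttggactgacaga
Olfr806: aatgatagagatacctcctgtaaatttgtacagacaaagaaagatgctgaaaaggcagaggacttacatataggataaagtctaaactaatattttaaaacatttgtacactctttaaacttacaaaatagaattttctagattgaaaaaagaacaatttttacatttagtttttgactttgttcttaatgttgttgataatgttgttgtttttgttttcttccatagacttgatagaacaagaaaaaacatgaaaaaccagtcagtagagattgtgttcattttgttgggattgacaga
Olfr787: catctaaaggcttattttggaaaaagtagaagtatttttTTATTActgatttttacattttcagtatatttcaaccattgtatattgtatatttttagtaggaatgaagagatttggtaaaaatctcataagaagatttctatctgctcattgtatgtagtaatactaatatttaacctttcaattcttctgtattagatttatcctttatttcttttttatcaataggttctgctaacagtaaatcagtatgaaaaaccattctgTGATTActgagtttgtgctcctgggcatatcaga
Olfr803: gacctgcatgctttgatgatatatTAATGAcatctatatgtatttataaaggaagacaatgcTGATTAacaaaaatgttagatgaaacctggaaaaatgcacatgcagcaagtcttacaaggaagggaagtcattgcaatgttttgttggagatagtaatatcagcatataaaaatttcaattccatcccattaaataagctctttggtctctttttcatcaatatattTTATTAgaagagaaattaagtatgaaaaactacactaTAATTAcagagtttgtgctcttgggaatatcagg
The first 50 coding bases of the MOR110 pair are much alike. The 250 bases before them were compared without gaps, where any inserted or lost base shifts the bases beyond it. A low identity there therefore does not show that the sequences are unlike. Over 7 MOR110 members the median identity between pairs was 82% in the 50 bases after the start and 32% in the 250 bases before it, position by position without gaps. Over 7 MOR111 members these values were 70.0% and 31.6%, and between MOR110 and MOR111 members they were 58.0% and 30.4%.

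TAATNA was found in the windows of 28 of 38 members (73.7%), against 65.5% of 910 other OR windows and 26.5% of all 32851 promoter windows. These windows are of unlike kinds. A start codon lies at the start in 37 of 38 member windows, 649 of 910 other OR windows and 1915 of all 32851 windows. The motif shares given here therefore compare unlike stretches of DNA. *Olfr803* had 4 matches and *Olfr787* had 2, and in each of these windows 1 match lies after the start codon. *Olfr784* had 1 match, and *Olfr806* had 0. The GC content was 32% in the median member window, 35.3% in the median window of other ORs and 52.7% in the median of all windows, so windows of the cluster hold more A and T in which such letters can occur. TATAAA was found in 57.9% of member windows, 40.3% of other OR windows and 13.6% of all windows. CCCNNGGG, the core of the site of the EBF factors of OSNs, was found in 0 of 38 member windows, 3.19% of other OR windows and 13.7% of all windows. All motifs were searched on both strands, and a match is a description of letters only. The 28 members with TAATNA had a median difference of -0.25, with 3 past an unadjusted p of 0.05, and the 10 without it a median of -0.40, with 2 past that threshold. *Olfr801*, the member with the largest difference, is in neither count.

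The ORs of 3 other chromosomes were set beside the cluster. The 281 ORs of chromosome 2 had a median difference of -0.19 with 211 below 0, the 128 of chromosome 9 a median of -0.23 with 113 below 0, and the 71 of chromosome 11 a median of -0.04 with 41 below 0. Averaged per array, other ORs were at 7.29, 6.99, 7.57 and 7.68 in knockouts 1 to 4, against 7.56, 7.31, 7.70 and 7.67 in controls 1 to 4. The order of knockouts by this mean was the same as for the cluster, with knockout 2 lowest. The difference of the mean at title numbers 5 to 8 was -0.25 for the cluster and -0.06 for other ORs, and at numbers 1 to 4 it was -0.38 for the cluster and -0.29 for other ORs. The difference between the cluster and other ORs was not tested, since the members were chosen with these values known.

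**Figure D5:**
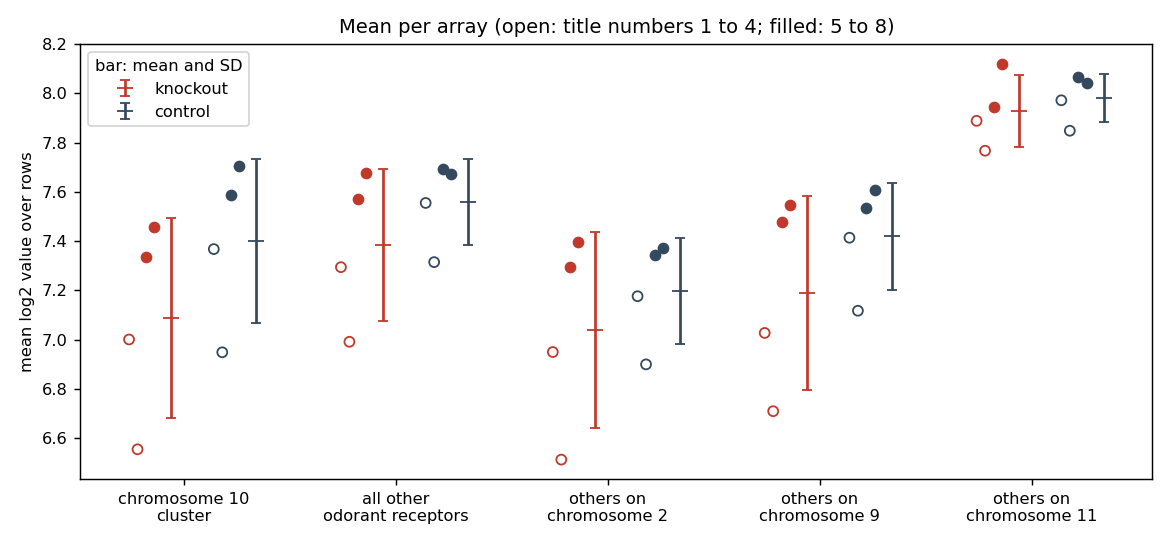
Mean log2 value per array (y axis) over the 45 members, the 990 other ORs and those of chromosomes 2, 9 and 11, with open points for title numbers 1 to 4, filled points for 5 to 8, and mean and SD beside them (n = 4 each). Knockouts and controls overlap in every set, and the cluster averages 7.09 in knockouts and 7.40 in controls.

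Genes known to act in OR gene choice and OR trafficking were read in the same fit. All 23 genes of this list were measured, and 21 were below 0 with a median of -0.08, while 1, *Emx2* itself, passed an adjusted p of 0.05. *Rtp2*, a chaperone of OR trafficking to the membrane, differed by -0.40 ± 0.078 (95% interval -0.58 to -0.22, adjusted p = 0.128, limma), and *Trim66*, a chromatin protein of OSNs, by -0.22 ± 0.07 (95% interval -0.38 to -0.06, adjusted p = 0.614, limma). *Ldb1*, the cofactor that Lhx2 binds, differed by 0.04, and *Ebf1* to *Ebf4* by -0.13 to 0.01. *Adcy3*, the adenylyl cyclase of odor transduction, differed by -0.11. Among lists of markers of other cells, none had a gene past an adjusted p of 0.05. The 6 respiratory ciliated genes were all above 0, with a median of 0.23 and a mean level of 10.18 to 10.53 in knockouts and 10.10 to 10.28 in controls. The 5 skeletal muscle genes were also all above 0, with a median of 0.15, and 2 glial genes were both below 0, with a median of -0.24. Medians of the other lists were -0.04 for sustentacular cells, -0.03 for basal and progenitor cells, -0.16 for vomeronasal neurons, -0.31 for olfactory bulb and brain, and 0.06 for leukocytes. The dorsal zone markers *Nqo1* and *Acsm4* differed by -0.57 ± 0.14 (95% interval -0.89 to -0.26, adjusted p = 0.316, limma) and -0.30 ± 0.141. Their part in the differences of the cluster was not tested.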

How the data were processed

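The authors deposited log2 values of transcript clusters for 8 arrays of olfactory mucosa RNA. A transcript cluster, per the study's methods, pools the exon probe sets of a gene. Affymetrix Expression Console is named in the submitters' processing notes. Its version and its treatment of background and arrays are details not given in the sources used here. A log2 value so reflects hybridization of all probes of a row, and ORs of similar sequence may share signal. No depth applies to arrays, and their number limits the precision. Gene names came from the platform annotation. The values were used as they stand. The study's methods describe scaling differences by the mean change of a long list of mature OSN mRNAs, and no such scaling was applied here. A related alternative centred each array on its mean over 18 mature OSN markers. No column of sample values was left out.

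All 23410 rows with a symbol entered a single two-sided limma fit (version 3.58.1, R 4.3.3, lmFit followed by eBayes) of knockouts against controls without covariates, and Benjamini-Hochberg adjustment ran over all of them. The fit was tested on simulated data. Groups came from the sample labels. The members and lists were chosen with earlier results of these data known. Values per array are given for members with an unadjusted p under 0.05, for the 5 largest differences in each direction, for the 5 members with the highest and the 3 with the lowest mean level, and for neighbours of members with p under 0.01. MOR families, strands and order came from RefSeq, and a comparison of protein sequences was not made. Alternatives were other normalizations, filters, variance models, array weights, the methods' t-test, either control genotype alone, the title numbers as a term, and each array left out. Medians without knockout 2 and within each set of title numbers were added after the data had been seen, as were some settings for the mean over members.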

Additional observations from a re-analysis of the deposited data

Results flagged for a closer look

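In the knockout group of *Olfr787*, knockout 2 lay at 4.79, below the other 3 knockouts at 5.04 to 5.08, and its gap to the nearest of them took a share of 0.863 of the whole range, above Dixon's 95% critical value for 4 samples. This was the only value so marked among 48 groups examined, where chance marks about 1 in 20. Knockout 2 was also the array that stood apart from the others. The difference of *Olfr787* was -0.52 without it.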

How the results depend on the processing

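The mean difference over members was below 0 under the 20 alternatives computed for it, at -0.47 to -0.14. It was -0.31 in the main comparison, -0.18 with array weights, -0.21 with arrays centred on the mature OSN list, -0.18 with Emx2(fl/fl) controls only and -0.14 without knockout 2. No paired analysis was possible because the replicate numbers only name samples and mark no shared litter, animal or day. The count of members lower at an unadjusted p under 0.01 was 2 in the main comparison and 1 without the dimmest 30% of rows, 1 with the methods' t-test, 1 with Emx2(fl/fl) controls only, 8 with the title numbers as a term, 6 at a threshold of 0.05, and 1 to 5 when each array was left out, with 5 without knockout 4. The count past an adjusted p of 0.05 was 0 in the main comparison and 1 (*Olfr801*) with array weights, 1 with the title numbers as a term and 1 without knockout 2, and 0 to 1 over arrays left out. Among the 23 members given per array, 8 changed sign in some setting: *Olfr775* to -0.012 with quantile normalization and -0.076 with 123Cre:Emx2(fl/+) controls only, *Olfr796* to -0.0050 and *Olfr780* to 0.0072 with array weights, *Olfr768* to -0.089, *Olfr767* to -0.057 and *Olfr765* to -0.034 with 123Cre:Emx2(fl/+) controls only, and *Olfr799* to 0.11 with Emx2(fl/fl) controls only. Leaving out each array gave -0.0047 to 0.168 for *Olfr767*, -0.163 to 0.230 for *Olfr775*, -0.461 to 0.151 for *Olfr820*, -0.081 to 0.155 for *Olfr765* and -0.0075 to 0.051 for *Olfr796*. Over all 45 members, 33 were below 0 without knockout 2, and 7 had turned above 0. The cause of these changes was not tested. Signal over background limits the dim members, and the filter on the dimmest 30% of rows left out 23 of the 45 members.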
